A study of Homo sapiens with 8 samples.

Results

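The integrin and laminin genes were followed in U2OS cells, a human osteosarcoma line, after CDK9 was silenced with siRNA. Members were chosen by gene symbol: the integrin alpha subunits, the integrin beta subunits and the laminin alpha, beta and gamma chains whose probe set carried a single gene symbol. This gave 35 genes of 18417 tested, 25 integrin subunits and 10 laminin chains, each read by 1 probe set. Of the other names in these families, ITGA1 shared its probe set with PELO, and LAMA3 was not analysed here. Expression was measured on arrays as log2 values, with 4 arrays of cells given CDK9 siRNA and 4 of cells given a non-targeting (nonspecific) siRNA. All cells received 10 nM siRNA and were collected after 72 h, so both groups share the transfection. The replicates are described as biological, from 1 cell line, and the whole culture was lysed, so fewer cells of a kind and less RNA per cell cannot be told apart.

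Integrins are receptors made of an alpha and a beta subunit that span the plasma membrane and tie the extracellular matrix to the actin cytoskeleton. Laminins are trimers of an alpha, a beta and a gamma chain, secreted into basement membranes, where integrins with ITGA3, ITGA6 or ITGA7 bind them. In cells of bone and its tumours, integrins are known for anchoring the cell to collagen, fibronectin and osteopontin. CDK9 is the kinase subunit of P-TEFb, which frees paused RNA polymerase II into elongation.

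The arrays fell into sets. Replicate 1 of both groups (array set 1, 2 arrays) had medians of 5.85 in CDK9 siRNA and 5.8 in control siRNA, and the other 6 arrays (array set 2) had medians of 6.99 to 7.04. Differences are therefore from limma fitted with array set as a blocking term, and the values of both sets stand beside each member that passed. CDK9 itself fell to 28.4% of its control signal (log2 -1.82 ± 0.05 SE, n = 4 per group, limma adjusted p = 2.17e-07). The mesenchymal markers VIM, SPARC, COL1A1 and RUNX2 were above the lowest 30% of genes (log2 6.14), called dim below, and ALPL, a bone marker, was dim. RUNX2, COL1A1 and VIM fell in the CDK9 siRNA group (log2 -0.60, -0.51 and -0.19), and the summed signal of the 5 markers (log2) was 13.45 to 13.51 in CDK9 siRNA and 13.61 to 13.67 in control siRNA in array set 2, and 12 in CDK9 siRNA and 12.48 in control siRNA in set 1.

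Of the 35 members, 5 rose and 1 fell. The rises were in ITGA6 (2.14-fold), a laminin-binding alpha subunit, LAMB3 (1.78-fold), a laminin beta chain of epithelial basement membranes, ITGB3 (1.66-fold) and ITGB8 (1.47-fold), beta subunits that pair with ITGAV, and LAMA5 (1.21-fold), a widespread laminin alpha chain. The fall was in LAMA4, a laminin alpha chain of vessel and muscle basement membranes, whose probe set was dim and was not shown to read above background. The 6 genes are 17.1% of the members, and the same test passed 14.2% of all genes tested. By direction, the test passed 6.73% of all genes as higher and 7.47% as lower. The other 29 members did not pass, and 18 of them differed by less than 0.1 on the log2 scale with both sets fitted together. In some of these the sets went opposite ways, as in ITGA7 with -0.37 in set 1 and 0.22 in set 2. The median log2 difference was 0.02 over the members and -0.0016 over all genes.

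**Figure D1:**
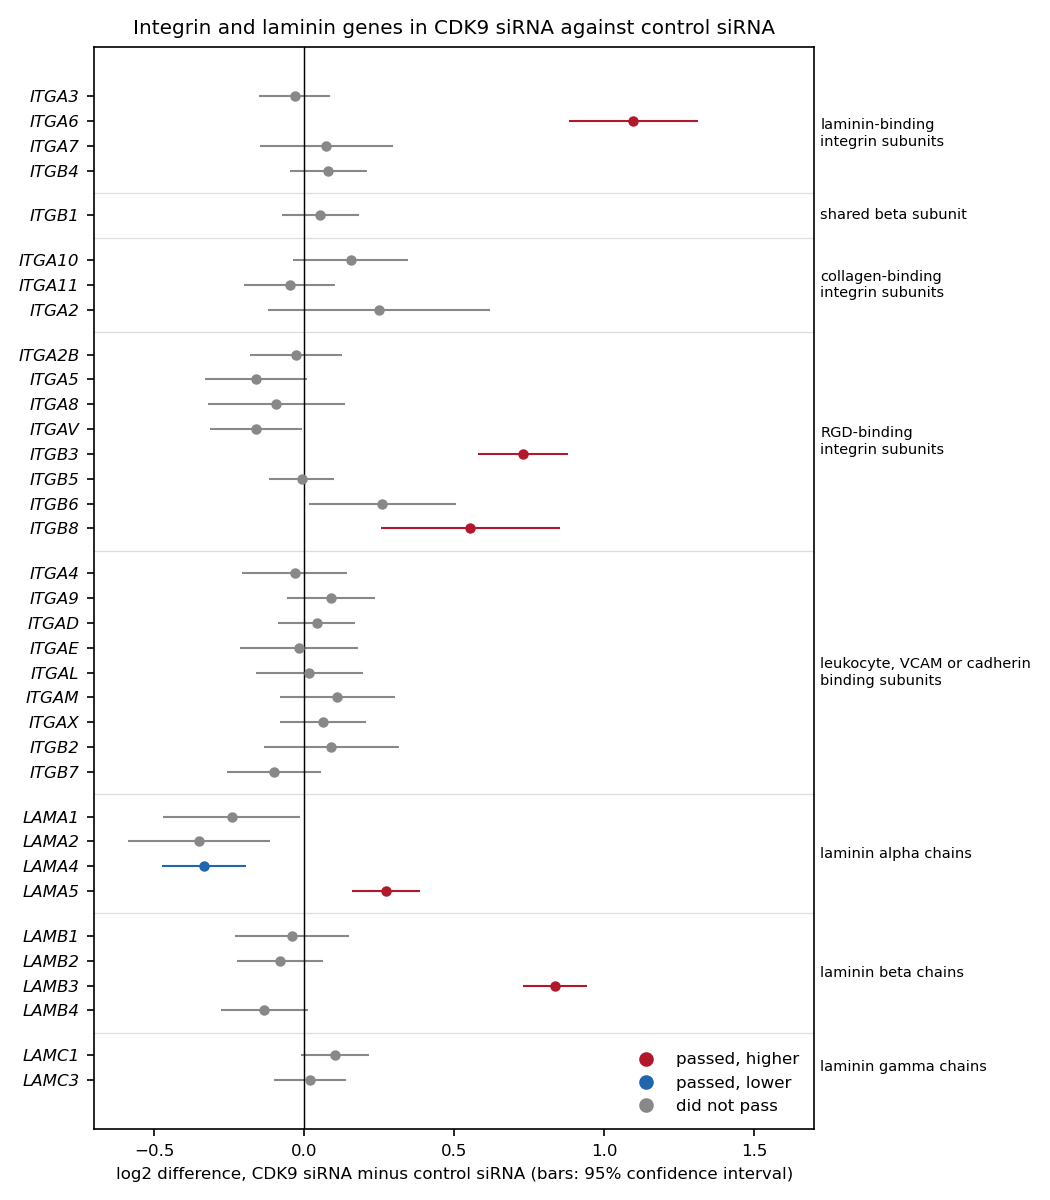
Log2 difference between CDK9 siRNA and control siRNA for each of the 35 members, grouped by ligand or chain, with 95% confidence intervals from limma with the array set as a block (n = 4 per group). ITGA6, LAMB3 and ITGB3 lie at 1.097, 0.83 and 0.73, while LAMA4 lies at -0.33 and most others have intervals that include 0.

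Upstream sequence is shown for the members with the largest rises among those in the RefSeq promoter table (ITGA6 and LAMB3) and for the member that fell (LAMA4). Each run is the 250 bases before the first-listed start of the gene, 5′ to 3′ on the gene's strand, in build GRCh38.p14. The ITGA6 run is chr2:172427086-172427335 (plus strand), that of LAMB3 is chr1:209652426-209652675 (minus strand) and that of LAMA4 is chr6:112254568-112254817 (minus strand). Capitals mark matches to the motifs searched, on both strands. The motif of AP-1 was spelled TGANTCA, that of Sp-family factors GGGCGG, the core promoter element TATAAA, and the motif of NF-Y was spelled CCAAT.
ITGA6: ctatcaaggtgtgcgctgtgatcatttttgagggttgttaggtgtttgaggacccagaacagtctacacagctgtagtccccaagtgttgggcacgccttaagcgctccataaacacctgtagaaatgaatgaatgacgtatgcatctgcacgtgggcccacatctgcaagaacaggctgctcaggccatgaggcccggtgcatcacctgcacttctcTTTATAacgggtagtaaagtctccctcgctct
LAMB3: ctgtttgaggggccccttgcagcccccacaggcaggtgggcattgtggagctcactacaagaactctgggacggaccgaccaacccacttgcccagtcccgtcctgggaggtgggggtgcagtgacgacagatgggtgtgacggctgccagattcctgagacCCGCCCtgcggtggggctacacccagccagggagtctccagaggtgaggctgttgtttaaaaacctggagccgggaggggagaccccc
LAMA4: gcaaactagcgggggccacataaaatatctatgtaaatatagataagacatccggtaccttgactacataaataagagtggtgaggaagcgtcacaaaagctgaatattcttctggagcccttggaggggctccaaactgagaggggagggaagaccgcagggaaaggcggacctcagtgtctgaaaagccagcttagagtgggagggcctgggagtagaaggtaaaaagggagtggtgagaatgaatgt
ITGA6 held 1 TATAAA match, on the opposite strand, LAMB3 held 1 GGGCGG match, also on the opposite strand, and LAMA4 held none of the 4 motifs. In the same window of 27305 genes, TATAAA was found in 11.1%, GGGCGG in 42.3%, CCAAT in 33.0% and TGANTCA in 6.6%. Of the 24 members matched in the table, 12 held GGGCGG, 4 CCAAT, 1 TATAAA and 0 TGANTCA. ITGA6 has 2 starts in the table and LAMB3 has 3, and the G and C share of the windows shown was 50.8% for ITGA6, 64.0% for LAMB3 and 48.4% for LAMA4, against a median of 58.0% over all genes. These matches describe the letters of the windows only.

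Among the laminin-binding integrin subunits, 1 of 4 rose. ITGA6 (probe set 8046380) pairs with ITGB1 or, in hemidesmosomes, with ITGB4. It read 9.99, 10.26, 10.40 and 10.27 in replicates 1 to 4 of CDK9 siRNA, against 8.47, 9.37, 9.35 and 9.34 in control siRNA. Every CDK9 siRNA array was above every control array, across both array sets. On the log2 scale the difference was 1.097 ± 0.095 (SE, n = 4 per group), or 2.14-fold with a 95% confidence interval of 1.84 to 2.48, and the limma adjusted p was 0.000246. The pair of set 1 differed by 1.52 and the arrays of set 2 by 0.96, and the term for the difference between sets had an adjusted p of 0.050032, just above the threshold. In an exact permutation test (two-sided) with 70 possible arrangements of the arrays, ITGA6 reached p = 0.0286. With the 40 arrangements that keep each set intact, the exact permutation test (two-sided) gave p = 0.05. No smaller p is possible in either. The members, ITGA6 among them, were chosen with earlier results of these data known. The limma and permutation p-values of ITGA6 are therefore not an independent test of its rise.

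The other laminin-binding subunits did not pass. ITGA3, which binds laminins together with ITGB1, differed by -0.03 (95% confidence interval -0.15 to 0.09). ITGB4, whose only alpha partner is ITGA6, differed by 0.08 (-0.05 to 0.21). ITGA7, a laminin receptor subunit known from muscle, differed by 0.07 overall but by -0.37 in the set 1 pair and 0.22 in set 2. Its CDK9 siRNA values in replicates 2 to 4 were 8.28, 8.20 and 8.14, against 7.98, 7.96 and 8.02 in control siRNA, while replicate 1 read 6.09 in CDK9 siRNA and 6.46 in control siRNA. The groups thus separated in array set 2 and went the opposite way in the single pair of set 1.

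ITGB1, the beta subunit shared by most laminin, collagen and fibronectin receptors, differed by 0.05 (95% confidence interval -0.07 to 0.18, adjusted p = 0.599). The log2 ratio of ITGA6 to ITGB1 was higher by 1.04 in CDK9 siRNA, by 1.61 in the set 1 pair and 0.85 in set 2. That of ITGA6 to ITGB4 was higher by 1.02, and that of ITGA6 to ITGA3 by 1.13. These ratios follow from the differences above and show unequal change of the subunits, with no test of their own.

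**Figure D2:**
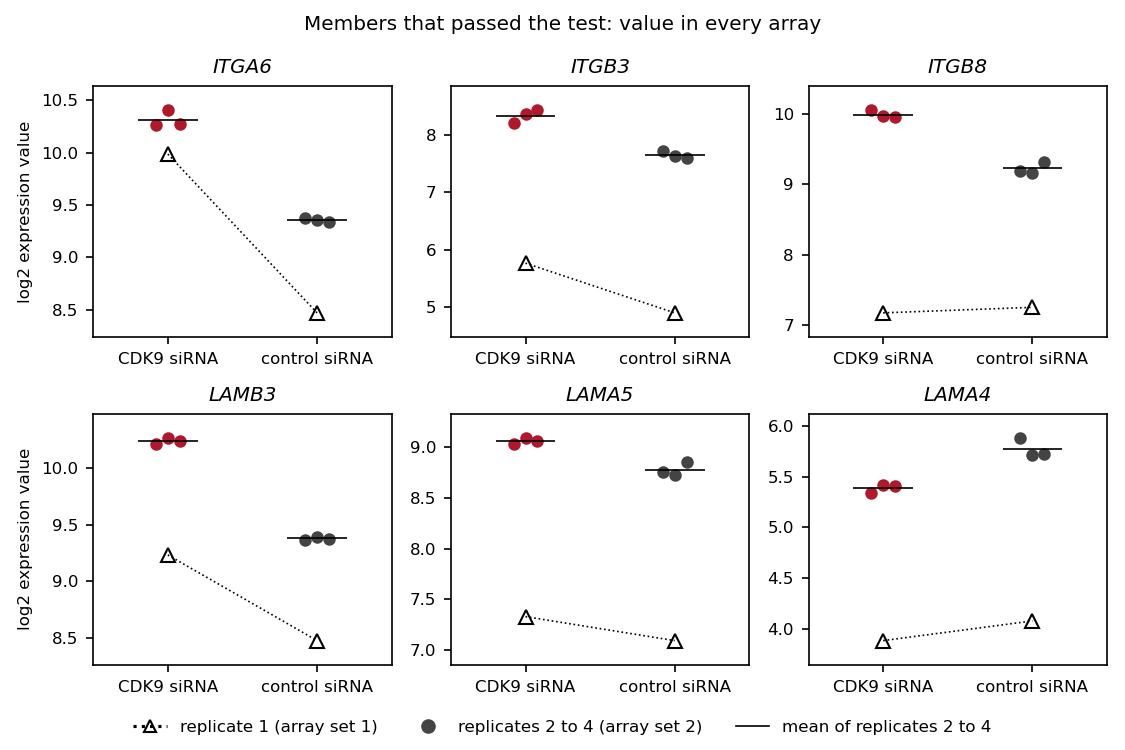
Log2 expression value in every array for the 6 members that passed, with CDK9 siRNA on the left and control siRNA on the right of each panel. Open triangles joined by a dotted line are the arrays of set 1, filled points those of set 2 with their mean as a line; ITGB8 is 7.18 in CDK9 siRNA and 7.26 in control siRNA in set 1, while the other 5 genes move the same way in both sets.

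Of the 8 subunits of receptors that bind the RGD tripeptide, 2 rose. ITGB3 (probe set 8007931), the beta subunit of the vitronectin receptor with ITGAV and of the platelet fibrinogen receptor with ITGA2B, read 5.76, 8.21, 8.37 and 8.43 in CDK9 siRNA, against 4.89, 7.73, 7.63 and 7.61 in control siRNA. Within each array set, all CDK9 siRNA values were above the control values. On the log2 scale the difference was 0.73 ± 0.07 (SE, n = 4 per group, limma adjusted p = 0.000303), 0.87 in set 1 and 0.68 in set 2.

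ITGB8 (probe set 8131666), which pairs with ITGAV and is known for activating latent TGF-beta, read 7.18, 10.05, 9.97 and 9.95 in CDK9 siRNA, against 7.26, 9.19, 9.17 and 9.32 in control siRNA. The groups separated in set 2, while in the single pair of set 1 the CDK9 siRNA array was slightly the lower. On the log2 scale the difference was 0.55 ± 0.13 (SE, n = 4 per group, limma adjusted p = 0.0233), made of -0.08 in set 1 and 0.76 in set 2, a difference between sets with adjusted p = 0.0259. ITGB8 did not pass once replicates were paired by number as a block (adjusted p = 0.0615), nor without any single array of set 2 (adjusted p = 0.0555 to 0.0718).

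ITGAV, the alpha partner of both, differed by -0.16 (adjusted p = 0.159). It read 9.85, 11.19, 11.19 and 11.17 in CDK9 siRNA, against 10.28, 11.26, 11.26 and 11.25 in control siRNA. All CDK9 siRNA values lay below the control values of their array set, by 0.43 in set 1 and 0.07 in set 2. The log2 ratio of ITGB3 to ITGAV was higher by 0.89 in CDK9 siRNA, by 1.30 in set 1 and 0.75 in set 2. That of ITGB8 to ITGAV was higher by 0.71, by 0.35 in set 1 and 0.83 in set 2. In set 1 ITGB8 itself was not higher, and the ratio there reflects the lower ITGAV value. ITGB5, another partner of ITGAV and a vitronectin receptor subunit, differed by -0.01 (95% confidence interval -0.12 to 0.10), and the log2 ratio of ITGB3 to ITGB5 was higher by 0.74.

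The rest of the RGD-binding group did not pass. ITGA5, the alpha subunit of the classical fibronectin receptor, differed by -0.16 (adjusted p = 0.199). It read 9.14, 9.36, 9.39 and 9.39 in CDK9 siRNA, against 8.99, 9.61, 9.68 and 9.65 in control siRNA, higher in set 1 by 0.15 and lower in set 2 by 0.27. ITGB6, an epithelial partner of ITGAV that was dim here, differed by 0.26 (adjusted p = 0.154), and the dim subunits ITGA8 and ITGA2B by -0.09 and -0.03.

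None of the 3 collagen-binding alpha subunits measured passed in limma, and each 95% confidence interval included 0. ITGA2, a receptor subunit for collagen and laminin, read 7.61, 9.22, 8.84 and 9.15 in CDK9 siRNA, against 6.61, 9.12, 9.07 and 9.03 in control siRNA. The set 1 pair differed by 1.0, while in set 2 the groups overlapped and differed by -0.0013, which gave 0.25 overall (95% confidence interval -0.12 to 0.62). ITGA10 and ITGA11, known from cartilage and fibroblasts, were dim and differed by 0.16 and -0.05.

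None of the 9 subunits of leukocyte integrins and of receptors for VCAM or cadherin passed either. Their log2 differences lay between -0.10 (ITGB7) and 0.11 (ITGAM), with adjusted p of 0.404 to 0.924, and each 95% confidence interval included 0. ITGAL, ITGAM, ITGAD, ITGAE and ITGA9 were dim. ITGB2, the beta subunit that pairs with ITGAL, ITGAM, ITGAX and ITGAD, differed by 0.09 (95% confidence interval -0.13 to 0.31), ITGA4, which binds VCAM and fibronectin, by -0.03, and ITGAX by 0.06. The leukocyte markers PTPRC, CD3E, CD14 and LYZ were dim as well, and in limma 0 of 5 leukocyte and 0 of 4 platelet markers passed (CORO1A and PPBP alone had an unadjusted p under 0.05). The summed signal of the leukocyte list (log2) was 8.18 to 8.40 in CDK9 siRNA and 8.51 to 8.60 in control siRNA in array set 2, and went the other way in set 1, with 7.29 in CDK9 siRNA and 7.19 in control siRNA. That of the platelet list was 8.16 to 8.39 in CDK9 siRNA and 8.23 to 8.33 in control siRNA in set 2, and 6.998 in CDK9 siRNA and 7.005 in control siRNA in set 1.

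Of the laminin alpha chains, 1 rose and 1 fell among 4 measured. LAMA5 (probe set 8067409) read 7.33, 9.03, 9.09 and 9.06 in CDK9 siRNA, against 7.09, 8.75, 8.73 and 8.85 in control siRNA. Its CDK9 siRNA values were above the control values in each array set, by a log2 difference of 0.27 ± 0.05 (SE, n = 4 per group, limma adjusted p = 0.00733), 0.24 in set 1 and 0.28 in set 2. LAMA4 (probe set 8128991), a dim gene, read 3.89, 5.34, 5.41 and 5.41 in CDK9 siRNA, against 4.08, 5.88, 5.71 and 5.72 in control siRNA. It was lower in both sets, by -0.33 ± 0.06 overall (adjusted p = 0.00753), -0.19 in set 1 and -0.38 in set 2. With a signal this low, the size of the change in LAMA4 is uncertain.

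LAMA1 and LAMA2, chains best known from embryonic and muscle basement membranes, went in opposite directions in the array sets. LAMA2 read 5.41, 6.72, 6.76 and 6.69 in CDK9 siRNA, against 5.26, 7.22, 7.28 and 7.23 in control siRNA. That is a difference of 0.15 in set 1 and -0.52 in set 2, and -0.35 overall (adjusted p = 0.0563). LAMA1 read 8.76, 9.35, 9.26 and 9.38 in CDK9 siRNA, against 8.53, 9.72, 9.76 and 9.70 in control siRNA, with 0.23 in set 1, -0.40 in set 2 and -0.24 overall (adjusted p = 0.157). For both genes the groups did not overlap in set 2. LAMA2 passed, as lower, under each other scaling tried (adjusted p = 0.0405 and 0.0425), and its adjusted p ran from 0.000818 to 0.151 over the alternatives other than that with no block.

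Of the 4 laminin beta chains, LAMB3 rose. LAMB3 (probe set 7924029) is a beta chain of epithelial laminin, which binds ITGA6 with ITGB4 in hemidesmosomes. It read 9.23, 10.21, 10.27 and 10.24 in CDK9 siRNA, against 8.48, 9.36, 9.40 and 9.38 in control siRNA. All CDK9 siRNA values were above the control values of their set, and the spread within set 2 was small (SD 0.03 in CDK9 siRNA and 0.02 in control siRNA, n = 3 each). On the log2 scale the difference was 0.83 ± 0.05 (SE, n = 4 per group, limma adjusted p = 3.76e-05), which put LAMB3 at rank 10 of all genes by p. The set 1 pair gave 0.76 and set 2 gave 0.86.

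LAMB1 and LAMB2, the beta chains of most other laminins, differed by -0.04 and -0.08, and the dim LAMB4 by -0.13. LAMB1 differed by 0.28 in set 1 and by -0.15 in set 2, where the groups did not overlap. LAMB2 differed by -0.31 in set 1 and by -0.0045 in set 2. For neither did the term for the difference between sets pass (limma adjusted p = 0.131 and 0.119). The log2 ratio of LAMB3 to LAMB1 was higher by 0.88 in CDK9 siRNA, by 0.48 in set 1 and 1.01 in set 2. That of LAMB3 to LAMB2 was higher by 0.92, by 1.07 in set 1 and 0.86 in set 2. LAMC1, the gamma chain of most laminins, differed by 0.10 (95% confidence interval -0.01 to 0.22), and LAMC3, another gamma chain, by 0.02 (-0.10 to 0.14). The epithelial markers KRT5, KRT14 and CDH1 differed by 0.01, 0.07 and -0.06, and EPCAM, also an epithelial marker and dim, rose by 0.32 (adjusted p = 0.0366), 1 of 4. Their summed signal (log2) was 8.82 to 9.04 in CDK9 siRNA and 8.79 to 8.96 in control siRNA in array set 2, and 7.58 in CDK9 siRNA and 7.47 in control siRNA in set 1, and all but KRT14 were dim. The part of other cell types in the rise of LAMB3 and ITGA6 was not tested.

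The difference between groups differed between the array sets for 4 of 35 members (11.4%), which were ITGA7, ITGB8, LAMA1 and LAMA2. The same test passed 2.14% of all genes. ITGA2 joined them with arrays centred on their medians, and ITGA5 with quantile normalization, 5 members each. In array set 2 alone (n = 3 per group), 10 members passed, 6 higher and 4 lower, 28.6% of them, against 18.1% of all genes (9.52% higher and 8.57% lower). These were the 6 above, with ITGA7 higher (0.22, limma adjusted p = 0.0264) and ITGA5, LAMA1 and LAMA2 lower (-0.27, -0.40 and -0.52, with limma adjusted p of 0.00785, 0.00286 and 0.000818). Array set 1 holds 1 array per group, so its values have no replicate check.

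**Figure D3:**
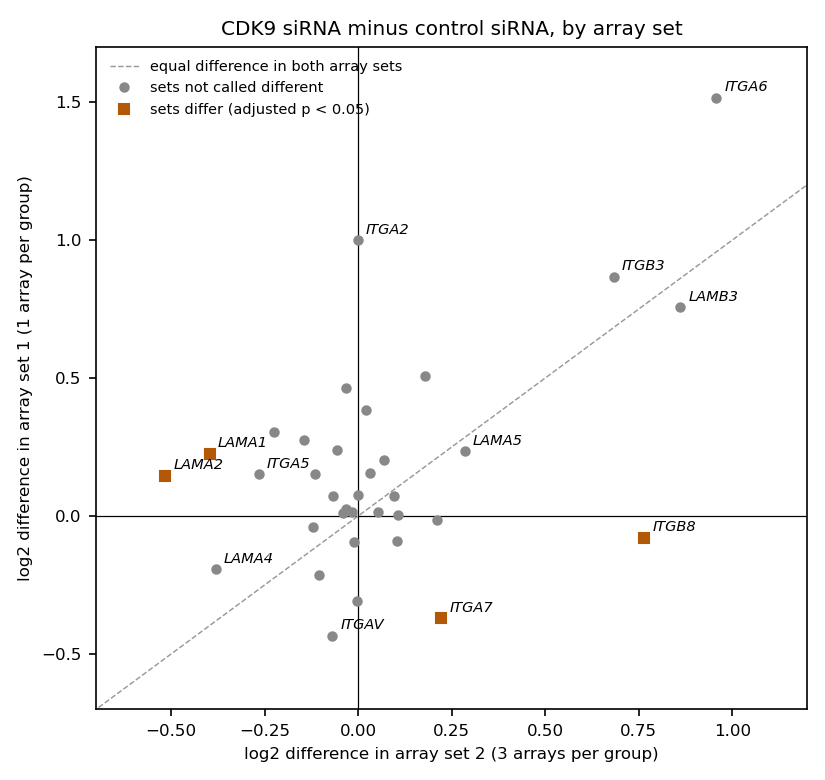
Log2 difference between CDK9 siRNA and control siRNA in array set 1 (1 array per group, vertical axis) against that in array set 2 (3 arrays per group, horizontal axis) for the 35 members, with the line of equal difference dashed. ITGA6, ITGB3, LAMB3 and LAMA5 are above 0 in both sets, and squares mark the 4 genes whose difference differed between the sets.

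Partners of integrins were counted in 5 lists that hold 86 measured genes. Of the 91 genes named in the lists, KRIT1, CRK, DAG1, SDC4 and COL17A1 were not analysed. DAG1, SDC4 and COL17A1 belong to the list of other basement membrane and laminin receptor genes. The lists were drawn up with earlier results of these data known. In them, 11 genes rose and 19 fell, 34.9%, against 14.2% of all genes, with a median log2 difference of -0.04 against -0.0016 over all genes. Few partner genes were dim: with dim genes left out, 32 of 82 partner genes passed (39.0%), against 23.8% of all genes, and 6 of 23 members (26.1%). With replicates paired by number as a block, 6 rose and 14 fell, 23.3%, against 9.17% of all genes (4.41% higher and 4.75% lower), and 5 members passed, 4 higher and 1 lower. Partner genes said below to lose their calls under that pairing also lost them without at least 3 of the single arrays.

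Of 21 integrin activators and adaptors, 3 rose and 1 fell. FERMT2 (kindlin), which binds the beta subunit tail and activates the integrin together with talin, read 9.97, 10.35, 10.43 and 10.40 in CDK9 siRNA, against 9.63, 10.03, 10.00 and 10.09 in control siRNA. Its values were higher in each set, by 0.35 overall (limma adjusted p = 0.00194). PARVG, a parvin, and LIMS1, the ILK-binding adaptor PINCH, rose by 0.29 and 0.21, and the focal adhesion protein ZYX fell by 0.19. PARVG, LIMS1 and ZYX lost their calls under the pairing (adjusted p = 0.0602, 0.0857 and 0.111). Talin TLN1, which links integrin tails to actin, differed by -0.01, and ILK by 0.08.

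Of 15 focal adhesion kinases and signalling genes, 2 rose and 4 fell. The scaffold BCAR1 (p130Cas), a substrate of focal adhesion kinase and SRC, read 7.51, 8.62, 8.62 and 8.73 in CDK9 siRNA, against 7.90, 9.07, 9.17 and 9.11 in control siRNA. It was lower in each set, by -0.45 overall (adjusted p = 0.000873). The paxillin-binding GIT1 (-0.39) and GIT2 (-0.24) and the SRC-family kinase FYN (-0.37) fell too, each lower in both sets. Caveolin CAV1 rose by 0.42, -0.07 in set 1 and 0.59 in set 2, and the adaptor CRKL rose by 0.21, and both lost their calls under the pairing (adjusted p = 0.0709 and 0.106). PTK2, focal adhesion kinase itself, differed by -0.04 (95% confidence interval -0.16 to 0.08).

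Of 11 tetraspanins and other integrin partners, 1 rose and 3 fell. CD151, the tetraspanin that binds laminin-binding integrins, read 10.30, 11.37, 11.44 and 11.37 in CDK9 siRNA, against 10.05, 11.16, 11.14 and 11.18 in control siRNA. It was higher in each set, by 0.23 overall (adjusted p = 0.0101). Another tetraspanin, CD82, fell by 0.37, the urokinase receptor PLAUR by 0.21 and the galectin LGALS3 by 0.18. PLAUR and LGALS3 lost their calls under the pairing (adjusted p = 0.0797 and 0.0858).

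Of 17 other basement membrane and laminin receptor genes, 1 rose and 4 fell. NID1 (nidogen), which joins laminin to collagen networks, read 7.25, 8.80, 9.01 and 8.88 in CDK9 siRNA, against 7.07, 8.46, 8.47 and 8.39 in control siRNA. Its difference was 0.39 (adjusted p = 0.00663), with 0.18 in set 1 and 0.46 in set 2. The laminin-like netrin NTN4 (-0.36), the proteoglycan agrin AGRN (-0.28), the hemidesmosomal linker plectin PLEC (-0.21) and COL4A2 (-0.17) fell. PLEC and COL4A2 lost their calls under the pairing (adjusted p = 0.0619 and 0.106), and NTN4 lost its call without control siRNA replicate 3 (adjusted p = 0.0521). The perlecan gene HSPG2 and the hyaluronan receptor CD44 differed by 0.04 and 0.05.

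Of 22 integrin ligands other than laminins and collagens, 4 rose and 7 fell. LTBP1, which holds latent TGF-beta in the matrix, read 7.24, 8.17, 8.34 and 8.32 in CDK9 siRNA, against 8.03, 8.85, 8.88 and 8.84 in control siRNA. It was lower in each set, by -0.63 overall (adjusted p = 0.000406). TGFB1, whose latent form is bound by ITGAV integrins, fell by 0.35, and the RGD proteins MFGE8, FBLN5, FBN1 and THBS1 by 0.50, 0.38, 0.37 and 0.31. Fibronectin FN1, the ligand of ITGA5, fell by 0.81, while the RGD protein osteopontin SPP1, a ligand of ITGAV with ITGB3, rose by 1.497. CCN2 and CCN1, matricellular ligands of ITGAV integrins, rose by 0.54 and 0.36, and JAM3, a junction protein that binds ITGAM with ITGB2, by 0.17 (adjusted p = 0.0391, and 0.0955 under the pairing). THBS1 lost its call without replicate 3 of CDK9 siRNA or replicate 3 or 4 of control siRNA (adjusted p = 0.0517, 0.0615 and 0.0617).

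**Figure D4:**
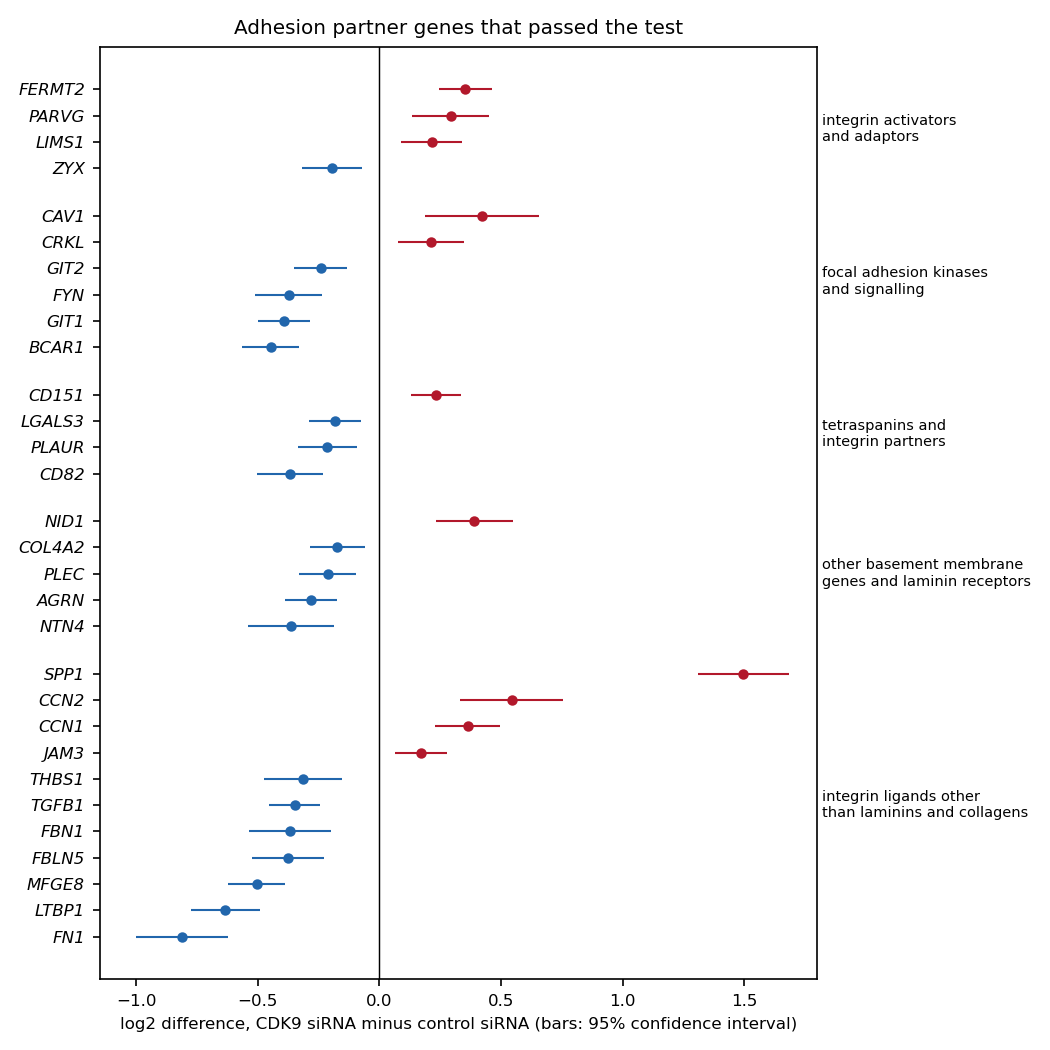
Log2 difference between CDK9 siRNA and control siRNA, with 95% confidence intervals from limma with the array set as a block, for the 30 adhesion partner genes that passed, grouped by list. SPP1 lies highest at 1.497 and FN1 lowest at -0.81.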

How the data were processed

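RNA of U2OS cells was measured on 8 Affymetrix human gene arrays. The authors deposited log2 expression values of 33297 probe sets, from 2.01 to 14.7 with none missing. The number of arrays, 4 per group, limits the precision. RMA, Affymetrix Expression Console 1.1, limma and hg19 are named per the submitters' processing notes, without role or order, and the sources used here do not say whether all 8 arrays were normalized in 1 run. Columns were mapped to samples by accession, and 0 array pairs held identical values.

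Probe sets with 1 symbol in the platform annotation (19460, against 1754 with several and 12083 with none) gave 18417 genes, each by its probe set with the highest mean over all arrays. RefSeq names (GRCh38.p14) changed 0 symbols, and its coordinates serve only for the promoter windows, of which 24 of 35 members had one.

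The test was limma 3.58.1 (R 4.3.3; lmFit and eBayes), two-sided, at an adjusted p under 0.05 with the Benjamini-Hochberg method across every gene. The array set was a block: the numbers in the descriptions have gaps that separate replicate 1 of both groups from the rest. What sets the array sets apart, culture or hybridisation, is not stated. A group by array set term tested whether the sets differ. The fits were tested on simulated data. Plots were made with matplotlib 3.10.9 and tables with pandas 2.3.3 and numpy 2.4.6 (Python 3.11.15).

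The titles give both groups the same replicate numbers. Deviations from group means correlated at 0.822, 0.537, 0.494 and 0.607 within same-numbered pairs, so the replicate number was also tried as a block. Arrays of set 2 with different numbers correlated at 0.405 to 0.561, and with deviations taken within set 2 the pairs of replicates 2 to 4 gave 0.108, -0.0105 and 0.17, so the pairing rests largely on the array sets.

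Every member that passed was named with its values, in groups without a pass at least the 2 with the highest mean, and every partner gene that passed. Members, lists and the block were chosen with earlier results of these data known. Other genes given with values were chosen after these had been seen. Alternatives were no block, the replicate number as block, set 2 alone, other scalings, dim genes left out, the mean of all probe sets, an intensity trend and each array left out.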

Additional observations from a re-analysis of the deposited data

Results flagged for a closer look

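Replicate 1 stood apart from the other arrays of its group in both groups, with array medians of 5.85 in CDK9 siRNA and 5.8 in control siRNA. After the mean of each gene's array set was subtracted, 70 groups of 4 values were examined for a value far from the other 3. Chance flags about 1 in 20 groups of independent values, a rate that does not apply here: set 1 holds 1 array per group, so its values are mirror images of each other, and a far value in replicate 1 restates the set 1 difference, which counts ITGAV in both groups. Far values in the CDK9 siRNA group were 0.319 for ITGA10 in replicate 2, 0.118 for ITGA4 in replicate 4, and 0.076 for ITGA5 and -0.217 for ITGAV in replicate 1. Far values in the control siRNA group, all in replicate 1, were -0.758 for ITGA6, 0.217 for ITGAV, -0.0732 for LAMA2 and 0.154 for LAMB2.

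By the group by array set term in limma, subtracting the set 1 difference from the set 2 difference gave 0.843 for ITGB8 (adjusted p = 0.0259), 0.591 for ITGA7 (adjusted p = 0.041), -0.623 for LAMA1 (adjusted p = 0.0342) and -0.662 for LAMA2 (adjusted p = 0.0259). Among the partner genes that passed it was 0.656 for CAV1 (adjusted p = 0.0259). Set 1 holds 1 array per group, so its part rests on a single pair.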

How the results depend on the processing

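With no block, 0 genes passed in limma, 0 members and 0 partner genes, while at an unadjusted p under 0.05 there were 28 genes higher, 23 lower (2 and 0 among members, 1 and 1 among partners); ITGA6 (1.097) and CDK9 (-1.82) then had an adjusted p of 1, since the difference between array sets enters the residual. Paired by replicate number as a block, 1688 genes passed and 5 members, all but ITGB8 of the 6, while ITGA6 kept its call (adjusted p = 0.00264); besides ITGB8 and the 10 partner genes given with their values, it changed no call among members and partner genes. In array set 2 alone 10 members passed. Without each single array in turn, 1520 to 3331 genes, 5 to 10 members and 19 to 34 partner genes passed, ITGA6 lay at 0.96 to 1.14 (adjusted p up to 0.00181) and CDK9 at -1.83 to -1.81. Leaving out either array of set 1 gives the same values as array set 2 alone. The lowest counts of all genes came without control siRNA replicate 3 (1520), CDK9 siRNA replicate 3 (1654), control replicate 4 (1685) and control replicate 2 (1715), and those of partner genes without replicate 3 of either group (19). With arrays centred on their medians or quantile normalized again, 7 members passed, and ITGA6 was at 1.103 and 1.089. With the mean of all probe sets, without dim genes or with an intensity trend, 6 or 7 members passed. These settings could not move the ITGA6 difference from 1.097. Each member has 1 probe set, and leaving out dim genes or adding a trend changes no value of ITGA6. LAMA4 is dim and has no value without dim genes. Members that had not passed changed sign under some settings, none of them passing there. In array set 2 alone ITGA2 was at -0.0013, ITGAL at -0.056, ITGB2 at -0.034 and LAMC3 at -0.0010, and ITGAL was at -0.000733 when quantile normalized again. Without single arrays ITGA11 lay at -0.12 to 0.00076, ITGA2 at -0.0013 to 0.37, ITGA2B at -0.081 to 0.018, ITGA4 at -0.099 to 0.0045, ITGAE at -0.095 to 0.035, ITGAL at -0.056 to 0.073, ITGB2 at -0.034 to 0.15, ITGB5 at -0.022 to 0.0082, LAMB1 at -0.15 to 0.024 and LAMC3 at -0.0063 to 0.046. ITGB6 passed without CDK9 siRNA replicate 4 (adjusted p = 0.0153). The array sets differed for 395 genes and 4 members. Under alternatives chosen after seeing the data, this was 564 genes and 5 members with centred arrays (adding ITGA2), 327 and 5 when quantile normalized again (adding ITGA5), and 1810 and 10 with an intensity trend, ITGA6 among them (adjusted p = 0.00092; 0.0774 centred, 0.0684 quantile normalized).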
